A study of Homo sapiens with 6 samples.

Results

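Small nucleolar RNAs (snoRNAs) were compared between CAsE-PE and RWPE-1 prostate epithelial cells on 6 single-colour arrays. A gene was taken as a snoRNA gene when its array feature carried a single symbol beginning with SNORA or SNORD and a number, without the SNORD113 and SNORD114 families, of which 6 genes were measured. This gave 170 of the 18417 measured genes, 109 with a C/D box symbol (SNORD) and 61 with an H/ACA box symbol (SNORA). Every gene was represented by its brightest feature. Only SNORA10 and SNORA15 had more than 1 feature, and the features of each gave nearly the same difference. RefSeq lists 167 of the 170 as snoRNA genes and 3, SNORD13P1, SNORD13P2 and SNORD13P3, as pseudogenes. All 170 entered the tests with no filter on low values. In 103 of them the mean level lay above the dimmest 33.3% of all genes (a log2 level of 6.25).

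CAsE-PE is the malignant descendant of RWPE-1, obtained by unbroken culture of RWPE-1 in 5 µM sodium arsenite, and its 3 arrays came from 30, 33.5 and 35 weeks of exposure. RWPE-1 is an immortal, untreated line of human prostate epithelium, immortalised with a human papillomavirus, and its 3 arrays came from passages 18, 38 and 42. The medium of both lines was serum-free (K-SFM) and held pituitary extract (BPE) and epidermal growth factor (EGF). CAsE-PE is 1 transformed line, the labels give no passage for it, and no untreated array is labelled as matched to it in time. Exposure, transformation and time in culture therefore cannot be told apart. The arrays of a line differ in passage or exposure time, and the labels do not say that they came from separate cultures. The p-values therefore measure the spread between these arrays. In that spread, passage or exposure time and technical variation cannot be told apart.

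A snoRNA guides the chemical modification of other RNAs by base pairing. C/D box snoRNAs work with the proteins FBL, NOP56, NOP58 and SNU13 and mostly direct 2′-O-methylation, while H/ACA box snoRNAs work with DKC1, NHP2, NOP10 and GAR1 and mostly direct the conversion of uridine to pseudouridine. The main targets are ribosomal RNA and small nuclear RNA, and a few snoRNAs instead help to cleave the ribosomal RNA precursor. In human cells most snoRNAs are cut out of the introns of other genes, called host genes, so a snoRNA and the spliced RNA of its host come from 1 transcript but have separate fates. These features detect RNA of a snoRNA's sequence and do not tell the mature snoRNA from an unspliced host transcript.

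The arrays were close in overall level, with median intensities of 91.7 to 92.3 for CAsE-PE and 93.3 to 97.2 in RWPE-1. Correlations of log2 levels over genes were 0.985 to 0.995 between arrays of 1 line and 0.956 to 0.969 between lines. Of 9 epithelial markers 8 were measured. Their summed intensity was 14150 to 15830 in CAsE-PE and 16100 to 17720 in RWPE-1, with CDH1 higher and KRT14 and CDH3 lower in CAsE-PE. In fits without 1 array the KRT14 call stood in 6 of 6, the CDH1 call in 3 (adjusted p up to 0.0811, without passage 38) and the CDH3 call in 1 (up to 0.121, without passage 18). Of 11 markers of leukocytes, endothelium and fibroblasts 10 were measured, and their summed intensity was 551 to 603 in CAsE-PE and 576 to 616 in RWPE-1, with CD14 the only one of them called (lower in CAsE-PE, kept in 3 of 6 such fits, up to 0.0989 without 35 weeks). No detection call came with the intensities, so a dim level cannot be told from background, and in bulk RNA fewer cells with a transcript and less of it per cell cannot be told apart.

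Among the snoRNA genes, 55 of 170 were higher in CAsE-PE and 0 were lower at an adjusted p under 0.05 (limma, Benjamini-Hochberg over all 18417 genes), which is 32.4% against 9.04% higher among all genes tested. Among all genes 8.71% were lower. At an unadjusted p under 0.05, 85 snoRNA genes were higher (50%, against 15.1% of all genes) and 4 lower (2.35%, against 17.3%). Among the alternative fits to all 6 arrays, array weights gave 4 genes lower and 4 other settings gave 1 each. The direction was shared widely, with positive differences in 146 genes and negative ones in 24. Differences are in log2 units, CAsE-PE minus RWPE-1, and their median was 0.38 over the snoRNA genes and −0.06 over all genes, and single genes ranged from −0.49 to 1.66. All 3 CAsE-PE arrays lay above all 3 RWPE-1 arrays in 81 snoRNA genes (47.6%, against 16.1% of all genes) and below them in 4 (2.35%, against 22.8%).

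Both classes held such rises. Of the 109 C/D box genes 34 were higher (31.2%) with a median difference of 0.43, and of the 61 H/ACA box genes 21 were higher (34.4%) with a median of 0.27. A rise of at least 2-fold was called in 17 C/D box genes, 12 of them SNORD116 copies, and in 4 H/ACA box genes. Together they make 12.4% of the snoRNA genes, against 1.55% of all genes. The share of C/D box genes depended on 1 family: SNORD116 supplied 16 of the 34. Without its 20 copies, 18 of 89 C/D box genes were higher (20.2%, median 0.33), and without SNORD115 as well 18 of 69 (26.1%, median 0.40). Of the 170 genes 13 are also named by a feature with several symbols, and without them 28 of 98 C/D box and 21 of 59 H/ACA box genes were higher. The difference between the classes was not tested. C/D box features belong to shorter RNAs, 60 to 205 nucleotides with a median of 82 in RefSeq, against 123 to 236 with a median of 134 for H/ACA box genes. The longest C/D box entry is the pseudogene SNORD13P2, which is among the 34 called.

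The counts moved with single arrays more than the medians did. Without the passage 38 array, 18 C/D box and 11 H/ACA box genes were called higher, and without the 35-week array 19 and 12. Without the passage 42 array 11 H/ACA box genes were called, and without passage 18 or 30 weeks 16 in either case. Without the 33.5-week array the calls were 48 and 20. In all genes the share called higher was 5.15% without passage 38, 5.62% without 35 weeks and 7.68% without 33.5 weeks. It was 7.99% without passage 42, 6.49% without passage 18 and 9.04% without 30 weeks. Of the 55 calls, 24 stood in each of the 6 fits that left out 1 array (43.6%), against 50% of the calls among all genes.

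The arrays of a line were not alike in snoRNA level. The median deviation of the 170 genes from their own RWPE-1 mean was 0.51 at 30 weeks, 0.20 at 33.5 weeks and 0.40 at 35 weeks in CAsE-PE, and 0.09, 0.05 and −0.12 at passages 18, 38 and 42 in RWPE-1. The 33.5-week array was the lowest of the CAsE-PE arrays in 113 of 170 genes. The passage 42 array was the lowest of the RWPE-1 arrays in 106. Both classes showed this order in CAsE-PE, with medians of 0.60, 0.20 and 0.44 for C/D box genes and 0.34, 0.15 and 0.29 for H/ACA box genes.

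**Figure D1:**
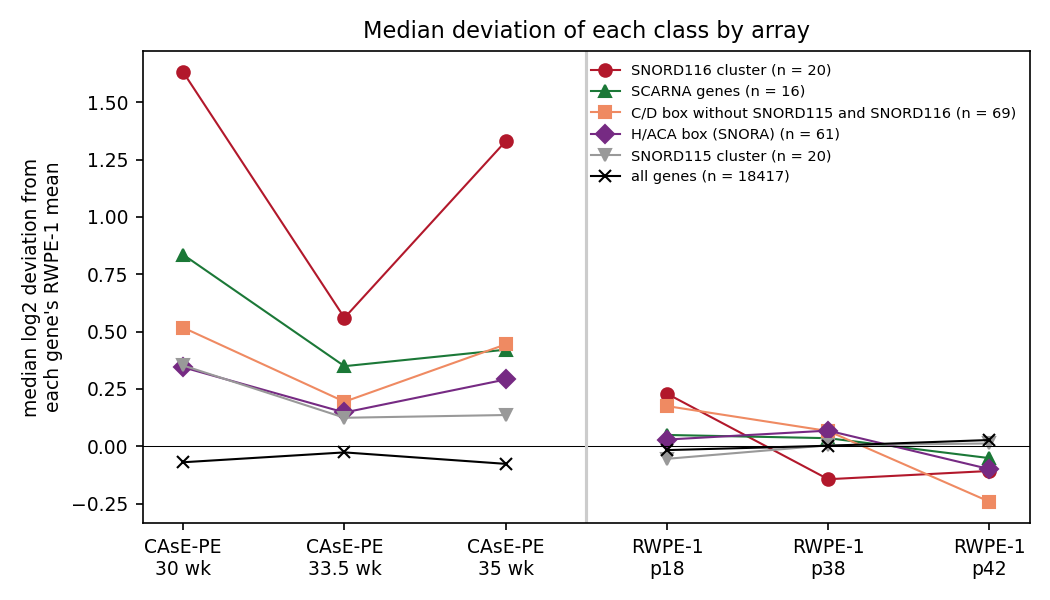
Median log2 deviation of each class from its genes' RWPE-1 means, by array, with CAsE-PE left of RWPE-1. Every snoRNA class and the SCARNA genes lay above 0 on all 3 CAsE-PE arrays and lowest at 33.5 weeks, with SNORD116 at 1.63, 0.56 and 1.33, and all genes lay close to 0 on every array.

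SNORD116 is a family of C/D box snoRNAs repeated in tandem in the imprinted region of chromosome 15 whose paternal loss is linked to Prader-Willi syndrome. These RNAs have no known ribosomal RNA target. All 20 measured copies had a positive difference, between 0.15 and 1.59 with a median of 1.18. Of these, 16 were called higher (80%, against 9.04% of all genes). The copies are near-identical in sequence, and features of 1 copy may also bind others, so they are not independent measurements. All 20 lie in SNHG14, the long non-coding host transcript of this region, and for SNORD116-6 a shorter RefSeq long non-coding RNA gene, LOC128966705, also contains it.

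SNORD116-13, the copy with the largest difference, had log2 levels of 6.91, 5.64 and 6.56 on the CAsE-PE arrays (30, 33.5 and 35 weeks), against 5.03, 4.46 and 4.85 in RWPE-1 at passages 18, 38 and 42. The lines did not overlap, and the difference was 1.59 (SE 0.29, n = 3 per line, 3.02-fold, limma adjusted p = 0.00543). SNORD116-23 stood at 9.23, 8.25 and 8.86 in CAsE-PE and at 7.70, 7.40 and 7.30 in RWPE-1, a difference of 1.31 (SE 0.22, limma adjusted p = 0.0040). The 33.5-week array was the lowest of the CAsE-PE arrays in 19 of 20 copies, and the 30-week array the highest in 18. In RWPE-1 passage 18 was the highest in 19 of 20, so the copies also moved together within each line.

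The other copies among the 10 largest rises of all snoRNA genes were SNORD116-29 (1.49), SNORD116-1 (1.39), SNORD116-26 (1.36), SNORD116-25 (1.29) and SNORD116-6 (1.28). Calls for SNORD116-29, SNORD116-1 and SNORD116-26 stood in every fit without 1 array. The call for SNORD116-25 was lost without passage 38 (limma adjusted p = 0.0869), passage 42 (0.0774) or 35 weeks (0.0821), and that for SNORD116-6 without passage 38 (0.0526). SNORD116-10, SNORD116-12, SNORD116-15 and SNORD116-18 did not pass the threshold, with differences of 0.15, 0.70, 0.61 and 1.26. Without passage 38 the test called 10 of the 20 copies, without passage 42 or 35 weeks 11 each, and without 33.5 weeks 19. Of all genes 5.15%, 7.99%, 5.62% and 7.68% were called higher in those fits, in the same order.

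The neighbouring family SNORD115, whose human and mouse members are studied for base pairing with the serotonin receptor transcript HTR2C, lies further along the same host. Of its 20 measured copies 0 passed the threshold in limma, where 9.04% of all genes were higher and 8.71% lower. At an unadjusted p under 0.05, 4 copies were higher (against 15.1% of all genes) and 0 lower (against 17.3%). Other settings called 0 to 4 copies higher and 0 lower, with 4 under array weights, 2 with array medians subtracted and 1 without passage 42 or 33.5 weeks. In the same settings, in this order, 2596, 1989, 1471 and 1415 of all 18417 genes were called higher. All 20 differences were positive, with a median of 0.23. The 30-week array was the highest of the CAsE-PE arrays in 12 of 20 copies and the lowest in 3. SNORD115-32 stood at 5.45 at 30 weeks, against 3.67 and 4.09 on the other CAsE-PE arrays and 3.74, 3.87 and 3.74 in RWPE-1. Their levels were low, with means of 2.24 to 4.40 in CAsE-PE and 2.13 to 3.78 in RWPE-1, and every copy was in the dimmest 33.3% of genes. At these levels a change could not be told from background.

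**Figure D2:**
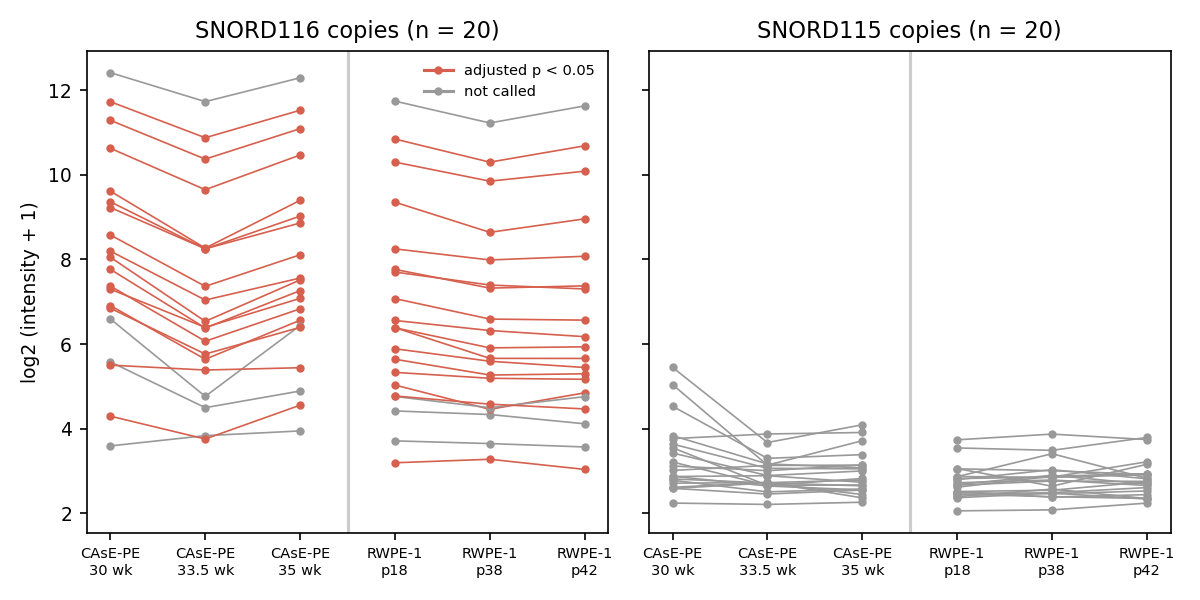
Log2 levels of the 20 SNORD116 and 20 SNORD115 copies on each array, CAsE-PE left of RWPE-1, with called copies in red. The SNORD116 lines dip together at 33.5 weeks and lie higher in CAsE-PE, while the SNORD115 copies stay low on every array.

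Other genes of the region were looked at after the SNORD116 values had been seen. A feature shared by SNORD109A and SNORD109B, C/D box snoRNAs at both ends of the region, had levels of 8.35, 7.38 and 8.06 in CAsE-PE and 6.71, 6.74 and 6.65 in RWPE-1, a difference of 1.23 (SE 0.22, limma adjusted p = 0.0118 over all features). A feature shared by SNORD64 and PWAR5 differed by 1.17 (SE 0.25, limma adjusted p = 0.0237). The call for the SNORD64 feature was lost in 4 of the 6 fits without 1 array, those without passage 18 (0.0595), passage 38 (0.0793), passage 42 (0.0731) or 35 weeks (0.0860). Both features dipped at 33.5 weeks as the SNORD116 copies did.

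Of 11 further genes of the region 7 were measured, 1 of them called. UBE3A, a ubiquitin ligase gene on the opposite strand of the region, was higher by 0.49 (SE 0.09, limma adjusted p = 0.00639). The non-coding gene PWAR6 differed by 0.84 (limma adjusted p = 0.0529). The imprinted genes NDN and MAGEL2 differed by −0.51 and −0.38 and MKRN3 by 0.08, none of them called. The 250 bases before the RefSeq start of SNHG14 hold 4 CG pairs, shown in capitals because methylation falls on CG pairs. Whether the RNA that holds the SNORD116 copies starts at this site, or whether this window is imprinted, was not tested. Among all RefSeq promoter windows of this length the median is 11 CG pairs, with quartiles of 3 and 23. The window is read 5′ to 3′ on the plus strand of GRCh38.p14, at chr15:24823358-24823607.
SNHG14: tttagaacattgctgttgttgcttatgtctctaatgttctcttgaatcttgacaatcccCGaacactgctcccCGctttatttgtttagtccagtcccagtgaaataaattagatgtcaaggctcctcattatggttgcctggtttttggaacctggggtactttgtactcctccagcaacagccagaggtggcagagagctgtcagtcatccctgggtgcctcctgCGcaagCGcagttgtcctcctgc
The arrays hold no methylation values, and a count of CG pairs says nothing about methylation in these cells.

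Outside this region the largest rise was in SNORD58A, a C/D box snoRNA in an intron of the ribosomal protein gene RPL17. SNORD58A (feature 8023259, chromosome 18) had log2 levels of 7.57, 6.88 and 7.56 in CAsE-PE, against 6.13, 5.94 and 4.97 in RWPE-1. Every CAsE-PE array lay above every RWPE-1 array, with passage 42 the lowest, and the difference was 1.66 (SE 0.30, 3.15-fold, limma adjusted p = 0.0051). RPL17 itself was higher by 1.06 (SE 0.15, limma adjusted p = 0.00168).

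SNORD45B, a C/D box snoRNA in the gene RABGGTB, which encodes a subunit of a Rab prenylating enzyme, stood at 7.80, 7.41 and 8.05 in CAsE-PE and at 6.92, 6.24 and 5.45 in RWPE-1. The difference was 1.55 (SE 0.32, 2.93-fold, limma adjusted p = 0.0101), and the RWPE-1 arrays spread by more than 1 log2 unit. The same host carries SNORD45A, higher by 0.50 (limma adjusted p = 0.0393), and SNORD45C, which differed by 0.30 without passing (0.267). RABGGTB differed by −0.11 (limma adjusted p = 0.574). The SNORD45A call was kept in 1 of the 6 fits without 1 array, that without 33.5 weeks, and reached an adjusted p of 0.143 without 35 weeks.

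Among H/ACA box genes the largest rise was in SNORA49, in an intron of the chromatin remodeller gene EP400. SNORA49 (feature 7960052, chromosome 12) stood at 8.59, 7.97 and 8.30 in CAsE-PE and at 6.90, 7.01 and 6.94 in RWPE-1. The RWPE-1 arrays lay close together, and the difference was 1.34 (SE 0.15, 2.52-fold, limma adjusted p = 0.000469). EP400 was higher by 0.50 (SE 0.10, limma adjusted p = 0.00809).

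Further H/ACA box rises of at least 2-fold were SNORA20, SNORA65 and SNORA5A, described here for their host genes. SNORA20 had 8.78, 8.14 and 8.70 in CAsE-PE and 7.43, 7.35 and 7.21 in RWPE-1, a difference of 1.21 (SE 0.17, limma adjusted p = 0.00133). Its host TCP1, a chaperonin subunit, differed by 0.00. SNORA65 had 9.23, 8.92 and 9.63 in CAsE-PE and 8.25, 8.03 and 8.31 in RWPE-1, a difference of 1.06 (SE 0.17, limma adjusted p = 0.0031), and its host RPL12, a ribosomal protein gene, differed by 0.01. The RPL12 feature (8063473) is numbered close to that of SNORD12C (8063345, chromosome 20), not that of SNORA65 (8164215, chromosome 9). Whether it measures RPL12 at its own locus was not checked. In SNORA5A the difference was 1.03 (SE 0.19, limma adjusted p = 0.0061), while SNORA5B and SNORA5C in the same host TBRG4 differed by 0.05 and 0.22 without passing.

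SNORA14A, an H/ACA box gene in an intron of the cytochrome P450 reductase gene POR and the marker named for this set, did not pass. Its levels were 9.27, 8.29 and 7.39 in CAsE-PE and 7.77, 7.69 and 7.18 in RWPE-1. The lines overlapped, because the 35-week array lay below passages 18 and 38, and the difference was 0.77 (SE 0.39, limma adjusted p = 0.206). Without the 35-week array it was 1.24 and passed (limma adjusted p = 0.0295), and without the 30-week array it was 0.30 (0.482).

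**Figure D3:**
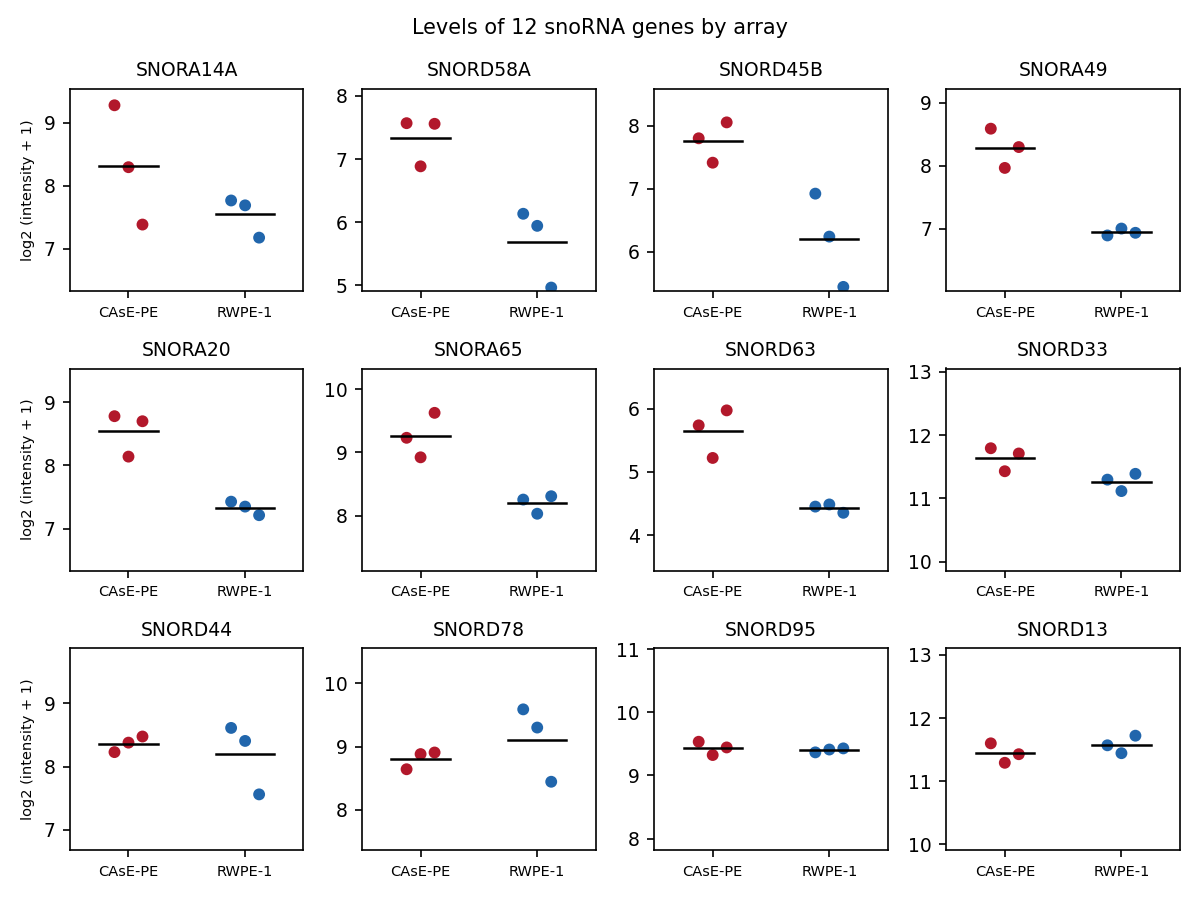
Log2 levels of 12 snoRNA genes on the 3 CAsE-PE and 3 RWPE-1 arrays, with the mean of each line as a bar and a y axis of the same span in every panel. SNORD58A, SNORD45B, SNORA49, SNORA20, SNORA65 and SNORD63 separate the lines, while the arrays of SNORA14A, SNORD44, SNORD78, SNORD95 and SNORD13 overlap.

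Where the host gene was measured, most called snoRNA genes rose without a called rise of the host. A gene that contains the snoRNA in RefSeq was found for 168 of 170, in 92 distinct genes, and the host was measured for 79 snoRNA genes in 60 hosts. These 60 hosts had a median difference of 0.01, with 6 higher (10%) and 4 lower, against 9.04% higher and 8.71% lower of all genes. The 79 snoRNA genes had a median of 0.42, and 71 of them had a more positive difference than their host. Of the 30 called snoRNA genes with a measured host, the host was called higher for 6 and not called for 24. Across the 79 pairs Pearson's r was 0.50 and Spearman's rho 0.35, given as a description over genes that share arrays and, in part, hosts.

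The 6 pairs in which both were called were SNORD58A with RPL17, SNORA49 with EP400, SNORA46 and SNORA50A with CNOT1, SNORD36B with RPL7A and SNORD63 with HSPA9. The RPL7A feature (8022972) is numbered close to that of SNORD58A (8023259, chromosome 18), not that of SNORD36B (8159006, chromosome 9). Whether it measures RPL7A at its own locus was not checked. The SNORA46 call was lost without passage 42 (limma adjusted p = 0.0537), and the SNORD36B call stood only without passage 18, reaching 0.151 without 35 weeks. SNORD63, in the gene of a mitochondrial chaperone, had 5.74, 5.22 and 5.98 in CAsE-PE and 4.45, 4.49 and 4.35 in RWPE-1, a difference of 1.21 (SE 0.18, limma adjusted p = 0.00169) beside 0.35 for HSPA9. SNORD82 differed by 1.16 (SE 0.25, limma adjusted p = 0.0119), while its host NCL, which encodes the nucleolar protein nucleolin, differed by −0.10. SNORA75 and SNORD20, also in NCL, differed by 0.38 and 0.77 without passing. The 4 hosts called lower were RAB30, ODC1, PPP2R5A and AAK1, and the H/ACA box genes inside them had negative differences that did not pass: SNORA70E (−0.27), SNORA80B (−0.30), SNORA16B (−0.49) and SNORA36C (−0.11). SNORA16B was the lowest of all 170 genes, at 4.77, 4.33 and 4.43 in CAsE-PE and 5.24, 4.85 and 4.92 in RWPE-1, with a limma adjusted p of 0.0502.

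Host counts moved when single arrays were left out. Among the host calls those for RPL17, EP400 and RAB30 stood in every fit without 1 array. The 6 hosts called higher became 2 without passage 38 and 3 without passage 18, passage 42, 33.5 weeks or 35 weeks. Those called lower became 1 without 35 weeks and 2 without passage 18, passage 38 or 33.5 weeks.

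**Figure D4:**
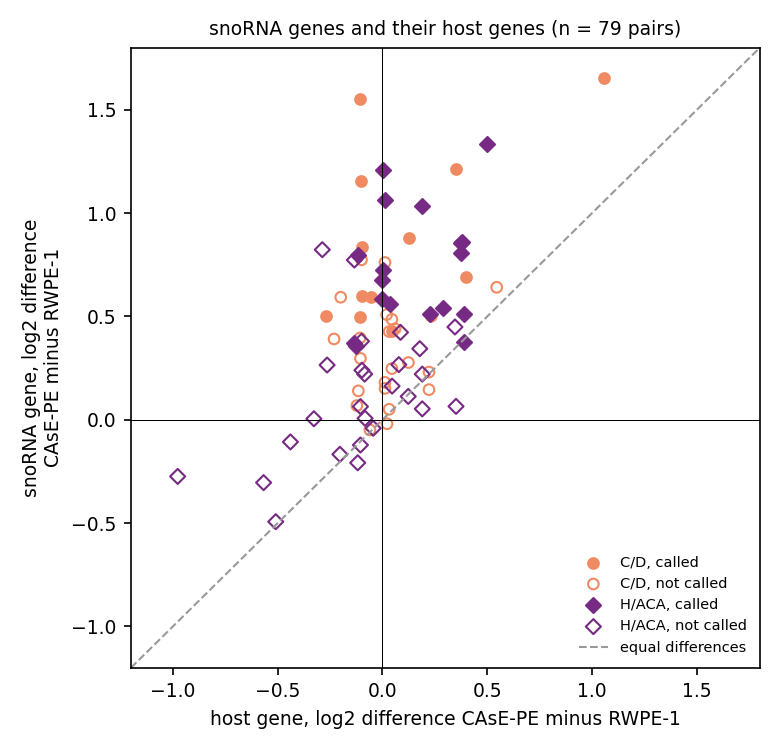
Log2 difference of each snoRNA gene (y axis) against that of its host gene (x axis), CAsE-PE minus RWPE-1, for 79 pairs, with called snoRNA genes filled and a dashed line at equal differences. Of the 79 points 71 lie above the line, and filled points spread over hosts with differences close to 0.

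Many snoRNA host genes belong to the class whose RNA starts with a C followed by a run of pyrimidines, the terminal oligopyrimidine tract through which growth signalling controls translation of ribosomal protein messages. A C at the RefSeq start followed by at least 4 more C or T bases on the sense strand was looked for. It was found in 24 of 74 genes that contain a measured snoRNA (32.4%), where 74 of the 92 containing genes were counted. Among 27305 genes with a RefSeq promoter window 5.14% held it, and among 14239 genes measured on the arrays 6.26%. The share was 8 of 27 (29.6%) for genes holding a called snoRNA and 16 of 47 (34%) for those holding none, and these shares were not tested against each other. The windows of 8 hosts described above run from 20 bases before the start to 20 bases from it (GRCh38.p14, 5′ to 3′ on the strand of the gene). Capitals mark the first base and, where that base is C or T, the pyrimidine run that begins with it.
RABGGTB, chr1:75786236-75786275, plus strand: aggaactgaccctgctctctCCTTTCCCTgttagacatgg
RPL12, chr9:127451387-127451426, minus strand: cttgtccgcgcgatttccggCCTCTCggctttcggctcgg
EP400, chr12:131949922-131949961, plus strand: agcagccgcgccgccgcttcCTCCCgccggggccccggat
RPL17, chr18:49492446-49492485, minus strand: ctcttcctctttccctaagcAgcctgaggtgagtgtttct
TCP1, chr6:159789583-159789622, minus strand: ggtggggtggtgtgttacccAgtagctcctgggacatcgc
NCL, chr2:231464465-231464504, minus strand: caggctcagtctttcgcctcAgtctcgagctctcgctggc
TBRG4, chr7:45111678-45111717, minus strand: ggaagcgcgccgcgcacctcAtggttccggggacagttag
HSPA9, chr5:138575382-138575421, minus strand: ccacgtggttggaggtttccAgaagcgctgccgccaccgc
RABGGTB, RPL12 and EP400 hold a tract of 9, 6 and 5 bases, and the other 5 (RPL17, TCP1, NCL, TBRG4 and HSPA9) start with A at the RefSeq position. SnoRNAs rose inside hosts of both kinds. A match of letters is a description, and a start a few bases away would read differently.

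The snoRNAs that act in cleavage and folding of the ribosomal RNA precursor gave few values. Of 15 such genes 3 had a feature of their own, and 0 of these were called or had an unadjusted p under 0.05 in limma. SNORD13, known for guiding acetylation of 18S ribosomal RNA, stood at 11.60, 11.29 and 11.43 in CAsE-PE and at 11.57, 11.44 and 11.72 in RWPE-1, a difference of −0.14 (SE 0.12). SNORD14C and SNORD14E, copies of U14, differed by 0.23 and 0.15. The copies of SNORD3 (U3), the most abundant of this class, shared 5 features with identical values, which count as 1 measurement. It was lower in CAsE-PE, at 9.37, 9.32 and 9.37, against 9.91, 9.69 and 9.98 in RWPE-1, a difference of −0.51 (SE 0.11, limma adjusted p = 0.0228 over all features). The U3 call was lost without passage 18 (0.0776), passage 42 (0.0595), 33.5 weeks (0.0596) or 35 weeks (0.0730). The feature shared by SNORA73A and its host SNHG3 was higher by 0.82 (limma adjusted p = 0.0211), a call lost without passage 38 (0.0771), passage 42 (0.0674), 30 weeks (0.0533) or 35 weeks (0.0736).

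Features shared by several symbols were tested over all 33252 features, of which 6.58% were higher and 4.95% lower. Of 74 such features that name a snoRNA, 20 were higher and 5 lower, and after identical values were counted once 15 of 61 were higher and 1, U3, was lower. Among the 15 were 4 of the 6 distinct features shared by SNORD116 copies, and the SNORD109 and SNORD64 features of the same region. The brightest of the 6 SNORD116 features differed by 0.58 without passing (limma adjusted p = 0.105). Higher features outside that region included SNORD68 with RPL13 (0.84), SNORD24 with RPL7A (0.92), SNORD1C with SNHG16 (0.89), SNORA64 with RPS2 (0.72) and SNORD80 with GAS5 (0.68). The first 3 of these calls stood in every fit without 1 array. The SNORA64 call was kept in 2 of 6 and the SNORD80 call also in 2 of 6, with adjusted p-values reaching 0.0964 without passage 38 and 0.118 without 35 weeks. The RNA of the snoRNA and of the other gene cannot be told apart in these features.

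The 4 snoRNAs in introns of RPL13A, which have been studied as mediators of oxidative and lipid stress, moved by similar amounts. SNORD33 stood at 11.79, 11.43 and 11.71 in CAsE-PE and at 11.30, 11.12 and 11.39 in RWPE-1. In SNORD32A, SNORD33, SNORD34 and SNORD35A all CAsE-PE arrays lay above all RWPE-1 arrays, with differences of 0.39, 0.38, 0.46 and 0.44. None passed (limma adjusted p = 0.0634, 0.0728, 0.0649 and 0.0772), though 4 of 4 were under 0.05 unadjusted. Without 33.5 weeks all 4 passed, with adjusted p-values of 0.0318, 0.0392, 0.0334 and 0.0215, and array weights also called all 4.

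The 7 snoRNAs in introns of GAS5, a growth-arrest transcript, that had a feature of their own gave no shared direction between the lines. Of these 7, 0 were called or had an unadjusted p under 0.05 in limma. Their differences ran from −0.30 to 0.25 with a median of 0.08. They varied instead within RWPE-1. Their median deviation from the RWPE-1 mean was 0.04, 0.03 and 0.16 for the CAsE-PE arrays, beside 0.48, 0.23 and −0.68 for RWPE-1 at passages 18, 38 and 42. SNORD44 stood at 8.23, 8.38 and 8.48 in CAsE-PE and at 8.61, 8.41 and 7.56 in RWPE-1. Passage 42 was the lowest of the 6 arrays for SNORD44, as it was for SNORD78. SNORD47, SNORD76 and SNORD80, measured only in features shared with GAS5, differed by 0.30, 0.05 and 0.68. Of these the SNORD80 feature was called higher (limma adjusted p = 0.0356 over all features), a call kept in 2 of 6 fits without 1 array.

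SNORD50A and SNORD50B, C/D box RNAs lost in several cancers and reported to bind K-Ras, and SNORD78, reported raised in prostate cancer, all had negative differences, of −0.36, −0.31 and −0.30, and none passed. SNORD50A stood at 8.07, 8.26 and 8.19 in CAsE-PE and at 8.92, 8.66 and 8.02 in RWPE-1, so passage 42 lay below all CAsE-PE arrays. Without passage 42 SNORD50A was called lower (−0.62, limma adjusted p = 0.0132), as was SNORD78 (−0.64, 0.0182), and array weights also called SNORD50A lower (−0.47, 0.0291).

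Of 11 snoRNAs used as reference RNAs in small RNA assays 7 had a feature of their own, and 0 of these were called. SNORD68, SNORD72 and SNORD47 were measured only in features shared with RPL13, RPL37 and GAS5, with differences of 0.84, 0.10 and 0.30. The SNORD68 feature was called higher (limma adjusted p = 0.00672 over all features), and the RNA of RPL13 cannot be told apart in it. SNORD95 had the smallest difference of the 7, at 9.53, 9.32 and 9.44 in CAsE-PE and 9.37, 9.41 and 9.43 in RWPE-1, or 0.03 (SE 0.10). SNORD96A differed by 0.09 and SNORD44 by 0.17. SNORD49A, SNORD61, SNORD43 and SNORD38B differed by 0.40, 0.47, 0.49 and 0.54. SNORD43 passed with array weights (limma adjusted p = 0.0457) and SNORD61 without 33.5 weeks (0.0403). A value that misses the threshold does not show an equal level.

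Of 26 genes for core proteins and assembly factors of the snoRNA particles 23 were measured, 2 were higher (8.70%) and 0 lower, with a median difference of −0.06. Among all genes 9.04% were higher, so the share of higher calls was that of the background. Some alternative fits gave lower calls, 3 with quantile normalisation, 2 with array weights, and 1 each with a pseudocount of 16 and an intensity trend. NHP2, an H/ACA box core protein, was higher by 0.44 (limma adjusted p = 0.0333), and COIL, the scaffold protein of Cajal bodies, by 0.43 (0.0294). Neither call was kept in all fits without 1 array. NHP2 was kept in the fit without 30 weeks alone and COIL in the fit without 35 weeks alone. The NHP2 feature (7929243) is numbered between those of SNORA14B (7925182, chromosome 1) and SNORA19 (7936637, chromosome 10). Whether it measures NHP2 at its own locus was not checked.

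Among the other core proteins, NOP10 differed by 0.38 (limma adjusted p = 0.0549), GAR1 by 0.12 and the pseudouridine synthase DKC1 by −0.18. On the C/D side the methyltransferase FBL stood at 10.98, 11.31 and 11.22 in CAsE-PE and at 11.55, 11.53 and 11.49 in RWPE-1, a difference of −0.35 (limma adjusted p = 0.0598). FBL passed as lower with quantile normalisation (0.0449), a pseudocount of 16 (0.0451), an intensity trend (0.0345) and array weights (0.0254). NOP58 differed by −0.27. NOP56 and SNU13 had no feature with a single symbol of their own.

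Other short RNAs were measured on the same arrays. Of 16 small Cajal body RNA genes (SCARNA), which guide modification of small nuclear RNA and share the C/D and H/ACA structures, 8 were higher (50%, against 9.04% of all genes) and 0 lower, with a median of 0.50. SCARNA9 was higher by 1.44 (SE 0.25, limma adjusted p = 0.00442), at 8.59, 7.58 and 8.40 in CAsE-PE and 6.99, 6.84 and 6.42 in RWPE-1. Without passage 38 or 35 weeks 5 of 16 were called (31.2%, against 5.15% and 5.62% of all genes in the same fits). SCARNA medians by array were 0.84, 0.35 and 0.42 in CAsE-PE, again lowest at 33.5 weeks.

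Of 189 microRNA genes 2 were higher (1.06%, against 9.04% of all genes) and 14 lower (7.41%, against 8.71%), with a median of −0.12. Their median log2 level was 5.14 to 5.42 by array, below the mark of 6.25 for the dimmest 33.3% of genes, which limits this count. Among 26 spliceosomal and vault RNA genes, chosen after the data had been seen, 2 were higher (the vault RNAs VTRNA1-2 by 0.58 and VTRNA1-3 by 0.86) and 2 lower (RNU5D-1 by −0.84 and RNVU1-6 by −0.46). These shares, 7.69% in either direction, lie near those of all genes. The VTRNA1-2 call was lost without 33.5 or 35 weeks, and the RNVU1-6 call without passage 18, passage 38, 30 weeks or 33.5 weeks, with adjusted p-values reaching 0.0696 and 0.117. RPPH1, the RNA of ribonuclease P, was higher by 0.90 (limma adjusted p = 0.00558), and RMRP, the RNA of a related enzyme, differed by 0.33 (0.0664). RNY1, another short RNA, differed by −0.22 (limma adjusted p = 0.518). These 3 genes were also chosen after the data had been seen. The part that recovery of short RNA in the extracts has in these differences was not tested.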

How the data were processed

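The authors deposited 1 intensity per feature for 33252 features on each of 6 arrays. The values are positive and reach 16617, so they were read as linear intensities. How they were background-corrected, summarised and normalised is not given in any source used here. Per the labels' protocols, total RNA came from a Trizol extraction cleaned on a miRNeasy column, and the Ambion WT Expression procedure gave the labelled target. The number of arrays limits the precision.

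The GEO platform annotation named 19460 features with 1 symbol and 1754 with several, and 12038 features were not in it. Of those with 1 symbol, 19429 matched RefSeq (GRCh38.p14) by Entrez identifier and 0 symbols changed. The brightest feature stood for each gene. Whether that feature lies at the gene's own locus was not checked, which limits the values of host and particle protein genes. The deposited intensities were turned into log2(value + 1), which understates changes of dim genes, and fitted with limma (version 3.58.1, R 4.3.3) by lmFit and eBayes. The test was two-sided with 4 residual degrees of freedom, with Benjamini-Hochberg adjustment over 18417 genes and a threshold of 0.05. Features with several symbols were tested in a second fit over all features. The step was also run on simulated data with independent values and spreads shuffled over genes. Genes do not shift together by array there, so that run does not test the calls made here.

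Named snoRNA genes were SNORA14A, up to 10 rises and 10 falls among called genes whose lines did not overlap (10 and 0 found), and every measured member of 5 lists (precursor cleavage, RPL13A introns, GAS5 introns, assay references, cancer literature). Other genes are examples chosen after their values were seen. The members and lists were chosen with earlier results of these data known. A host was the shortest RefSeq gene containing the snoRNA, and strand was not checked because the table used here gives none. Promoter windows are from RefSeq, and snoRNA sequences are not shown. Python 3.11.15, numpy 2.4.6 and pandas 2.3.3 were used. Alternatives were quantile normalisation, array medians subtracted, a pseudocount of 16, no dimmest 33.3%, the mean of features, an intensity trend, a robust prior, array weights and each array left out.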

Additional observations from a re-analysis of the deposited data

How the results depend on the processing

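With 3 arrays per line and no detection calls, counts are less firm than medians, and SNORD115 and other dim features are limited by background. The median difference stayed positive under every alternative, at 0.32 to 0.51 for C/D box and 0.19 to 0.36 for H/ACA box genes. With array weights, C/D box genes higher numbered 52 (34 as reported) and lower 1, H/ACA box genes lower 3, particle proteins higher 4 and lower 2, and host genes were 6 and 6. Quantile normalisation gave 1 H/ACA box gene and 3 particle proteins lower. The mean of features, the intensity trend and the robust prior gave 1 H/ACA box gene lower each, and the trend and a pseudocount of 16 gave 1 particle protein lower each. With 1 array left out, C/D box genes higher ranged from 18 to 48 and lower from 0 to 2, H/ACA box genes higher from 11 to 20 and lower from 0 to 1, SNORD116 from 10 to 19, SCARNA genes from 5 to 10, hosts higher from 2 to 4 and lower from 1 to 4, and particle proteins higher from 0 to 1 and lower from 0 to 1. All genes higher ranged from 949 to 1665 there, and array weights gave 2596. These fits have fewer arrays, and the cause of the other shifts was not tested. Leaving out the SNORD116 copies alone was chosen after seeing the data. Of the values of named genes under alternatives, 734 kept direction and side of the threshold, 31 newly passed and 14 no longer passed, and 0 reversed while called. No paired analysis was possible because the labels match no passage of RWPE-1 to an exposure time of CAsE-PE.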
